A study of Mus musculus with 6 samples.

Results

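The 8 genes described here encode the sodium pump's beta subunits *Atp1b1*, *Atp1b2* and *Atp1b3* and the FXYD regulators *Fxyd1*, *Fxyd2*, *Fxyd3*, *Fxyd5* and *Fxyd6*. They were chosen by symbol, through the GRCm38 annotation, from the 47729 genes of the deposited table, and all 8 passed the filter on low reads that left 19308 genes for testing. The other 3 genes of these 2 classes, *Atp1b4*, *Fxyd4* and *Fxyd7*, are given so that each gene can be read as a share of its class. RNAseq libraries came from 14-day-old mice of 2 lines, 3 Control mice of the random-bred ICR line and 3 mice of LS1, a Longshanks line bred for tibiae long relative to body mass. Both proximal tibial epiphyses of a mouse were pooled into 1 library, so that growth plate, articular cartilage, metaphyseal bone, secondary ossification centre and marrow were measured together. The mice came from different families of 1 generation, and neither line received a treatment. LS1 is a single selected line, so a difference between these mice cannot be told apart from drift in that line.

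The Na+/K+ ATPase (NKA pump) moves sodium out of the cell and potassium into it against their gradients, using ATP. Its alpha subunit holds the ATPase and the ion sites, and its beta subunit is a glycoprotein needed to fold the alpha subunit and bring it to the membrane. FXYD proteins are small proteins that cross the membrane once, bind the pump beside the alpha subunit and tune its affinity for ions in a tissue-dependent way. In cartilage the pump is known for its part in setting chondrocyte ion content and volume.

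The FXYD family is named for a motif just outside the membrane, Pro-Phe-X-Tyr-Asp, where X is any residue. The coding bases around this motif are shown for the FXYD members, while the class counted below was set by gene symbol. Each line gives 45 bases of the sense strand, 5′ to 3′, from the principal transcript of GENCODE M21, with the 15 bases of the motif in capitals. All lie in coding exons, and the coordinates on GRCm38 run from the first to the last base and include the intron or introns between them. *Fxyd2* and *Fxyd6* are at chr9:45408117-45408316 and chr9:45390645-45390793 on the plus strand. *Fxyd1*, *Fxyd3* and *Fxyd5* are at chr7:31053458-31053920, chr7:31071350-31072184 and chr7:31035267-31035413 on the minus strand.
Fxyd1: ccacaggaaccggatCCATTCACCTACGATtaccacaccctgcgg
Fxyd2: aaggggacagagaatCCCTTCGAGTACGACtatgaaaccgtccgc
Fxyd3: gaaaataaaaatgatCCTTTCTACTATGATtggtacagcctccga
Fxyd5: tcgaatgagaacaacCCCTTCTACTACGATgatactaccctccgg
Fxyd6: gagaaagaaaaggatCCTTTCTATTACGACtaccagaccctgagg

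The motif was found once in each of the 7 FXYD genes, *Fxyd4* and *Fxyd7* included. In all 7 an exon junction follows base 28 of the window, inside the last motif codon, and *Fxyd3* and *Fxyd4* carry another junction after base 4. *Fxyd2* shared 27 of 45 bases with its chromosomal neighbour *Fxyd6* and 24 with *Fxyd1*, and the highest count among all pairs was 31. The coded proteins differ in length, from 64 residues for *Fxyd2* to 178 for *Fxyd5*, in which the motif starts at residue 134 against residue 16 in *Fxyd2*.

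Levels were compared between genes as normalised counts per kilobase of annotated exon. *Atp1b3*, the beta3 subunit, was the highest of the 11 genes, at 9288 ± 197 (SD, n = 3 mice) per kilobase in Control. Its mean over all 6 libraries stood at the 98.6th percentile of the genes tested. *Fxyd5*, known as dysadherin and linked to cell adhesion, came next at 2929 ± 1138 (SD, n = 3), and *Atp1b1*, the beta1 subunit, was at 1161 ± 84.1 (SD, n = 3).

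In Control *Fxyd1*, *Atp1b2* and *Fxyd6* followed at 690 ± 106, 628 ± 96.0 and 588 ± 56.2 per kilobase (SD, n = 3 each), and these neighbours did not differ beyond their spread. The same holds for *Fxyd2* at 112 ± 76.1 and *Fxyd3* at 103 ± 11.0 (SD, n = 3 each). In LS1 *Fxyd2* stood at 27.6 ± 11.9 per kilobase (SD, n = 3), below *Fxyd7* at 48.9 ± 19.0 (SD, n = 3). The order of these genes depended on the length used. With the principal transcript as the length, *Fxyd2* held on average 1.27% of the FXYD class level in LS1 and *Fxyd7* 0.366%. In Control *Fxyd2* then held 4.35% and *Fxyd3* 1.21%. *Atp1b4* and *Fxyd4* stayed under 13 per kilobase in every library, with 147 and 78 reads over all 6 libraries.

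**Figure D1:**
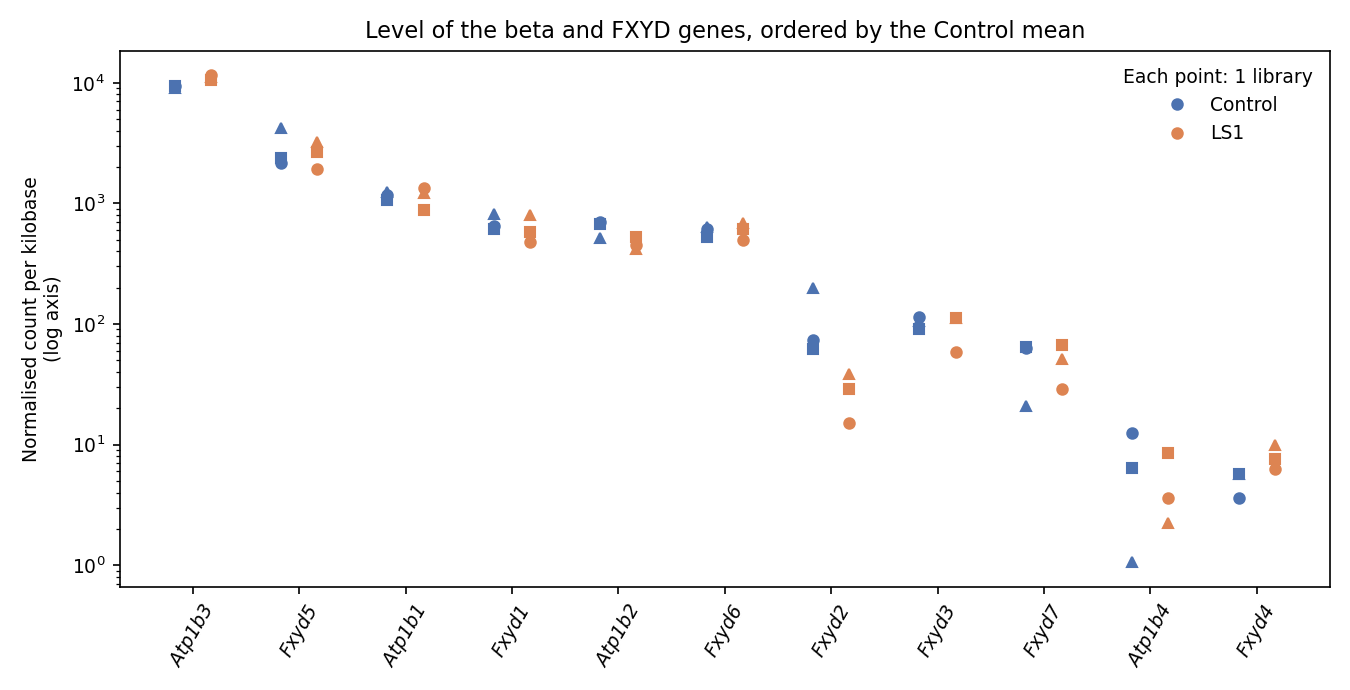
Normalised counts per kilobase of exon (log axis) for the 11 beta and FXYD genes, ordered by the Control mean, with 1 point per library (circle, square and triangle for replicates 1, 2 and 3). *Atp1b3* and *Fxyd5* lie highest, and *Fxyd2* is the FXYD gene whose LS1 points lie apart from and below its Control points.

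For the comparison of LS1 with Control, limma called 0 of the 8 genes at an adjusted p under 0.05, where it called 0.0725% of all genes tested. Before adjustment 2 of the 8 had a p under 0.05, *Fxyd2* and *Atp1b2*, both lower in LS1, against 12.9% of all genes. The libraries of the lines did not overlap in 2 of the 8, *Fxyd2* and *Atp1b3*, against 19.2% of all genes, of which 8.94% had every LS1 library lower and 10.3% every LS1 library higher. DESeq2 on the recovered reads called 1 of the 8, *Fxyd2*, against 2.51% of its genes, and edgeR called 0, against 0.0363%. The study took *Fxyd2* from its calls on these same libraries, so its place in these counts is not independent. Of the other 7 members, 1 had an unadjusted p under 0.05, 1 did not overlap and DESeq2 called 0. The median log2 fold change of the 8 genes was -0.16, beside 0.01 for all genes tested.

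**Figure D2:**
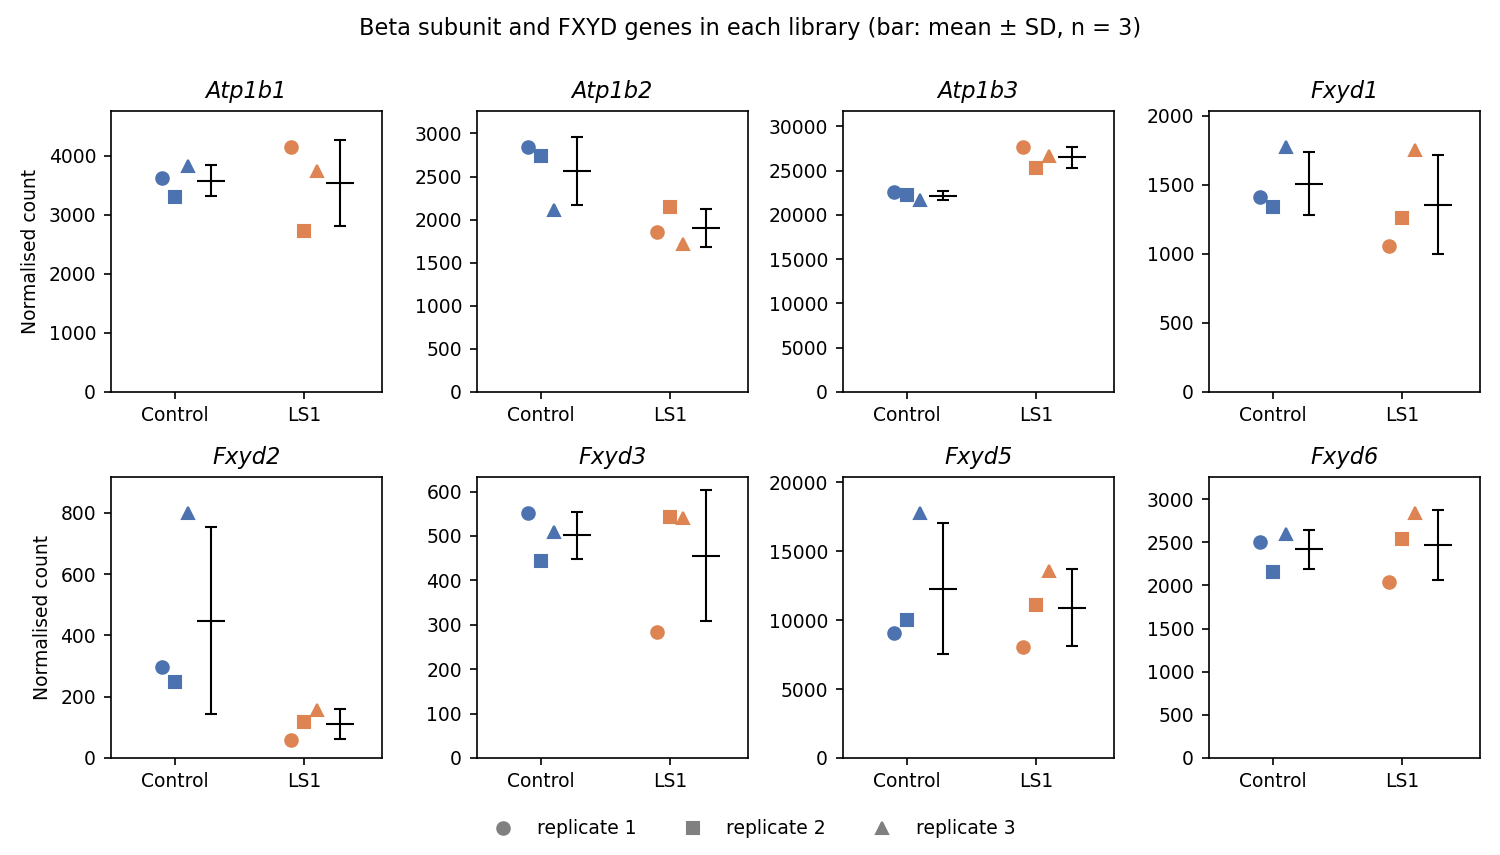
Normalised count of each of the 8 genes (vertical axis, from 0) in Control and LS1, with 1 point per library and the mean ± SD beside the points. The *Fxyd2* and *Atp1b3* groups are apart in opposite directions, *Atp1b2* overlaps by 1 library of each line, and the other 5 genes overlap broadly.

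Among the beta subunits, *Atp1b3* (chr9:96332655-96364442, minus strand) had normalised counts of 22619, 22261 and 21684 in Control and 27649.6, 25259.7 and 26675 in LS1. Every LS1 library was above every Control library, and the Control libraries lay within 1.04-fold of one another. The log2 fold change was 0.26 (SE, the standard error, 0.12, 95% confidence interval -0.0042 to 0.52, limma adjusted p = 0.394). Without each library in turn it ran from 0.23 to 0.29. The chondrocyte marker list was also higher in LS1, with 13 of 14 genes above 0, a median log2 fold change of 0.49 and summed counts of 2626 to 2982 (in units of 1000 counts) in Control and 3340.3 to 3859 in LS1, and its part in the difference was not tested. A change in the number of cells of a type and a change in RNA per cell cannot be told apart in these bulk libraries.

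The glial form *Atp1b2* (chr11:69599736-69605942, minus strand), also known as an adhesion molecule on glia, was lower in LS1 in the mean. Its counts were 2839, 2739 and 2116 in Control and 1850.2, 2146 and 1718 in LS1. The lines overlapped by 1 library each, LS1 replicate 2 above Control replicate 3. The difference was -0.42 on the log2 scale (SE 0.16, 95% confidence interval -0.78 to -0.06, limma unadjusted p = 0.0255 and adjusted p = 0.319). No gene of the annotation overlaps *Atp1b2*. Of 7 Schwann cell markers 3 were higher and 4 lower in LS1 (median -0.03 on the log2 scale), while their summed counts were higher, at 11677 to 13142 in Control and 14027 to 14707 in LS1. Their part in the difference was not tested. Erythroid markers were lower in LS1 in 13 of 13 genes, where 50.7% of all genes tested were above 0. By limma 7 of these 13 and 2 of the 7 Schwann cell markers had an unadjusted p under 0.05, against 12.9% of all genes. The erythroid markers had sums of 521189, 445983 and 364861 in Control and 239586, 401713 and 329553 in LS1. Sorted by *Atp1b2*, the Control libraries stood in the order of those sums and the LS1 libraries did not, and the part of the erythroid cells in the difference was not tested.

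Control libraries of *Atp1b1* (chr1:164437109-164458355, minus strand) had 3614, 3301 and 3816 normalised counts. Those of LS1 had 4139, 2719 and 3742, so that LS1 held both the highest and the lowest library. Its log2 fold change was -0.04 (SE 0.17), with a 95% confidence interval of -0.41 to 0.33, and it was 0.14 without LS1 replicate 2. *Atp1b1* overlaps *Nme7* on the opposite strand, and the sources used here do not state whether the counting used strand. *Atp1b4*, a muscle form of the eutherian beta family that has lost its place in the pump, was low in both lines and ranged 11.9-fold within Control.

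The gamma subunit *Fxyd2* (chr9:45399669-45410278, plus strand), best known from the kidney tubule, had 296, 249 and 799 normalised counts in Control and 60.0, 117 and 155 in LS1. The 3 LS1 libraries lay below the 3 Control libraries without overlap, and Control replicate 3 lay far above the other two Control libraries. The study took *Fxyd2* from the genes it called changed in these libraries, so the fold change is not independent evidence. The study also measured *Fxyd2* by qPCR in growth plates of later-generation mice, where it was lower in LS1 and in another Longshanks line. In the libraries described here the mean was 4.05-fold lower in LS1, or 2.47-fold without Control replicate 3. The log2 fold change was -1.91 (SE 0.48, 95% confidence interval -2.98 to -0.84, limma adjusted p = 0.216). Adjusted p-values over 10 other settings of test, scaling, pseudocount, filter, block or libraries ran from 0.000499 with DESeq2 to 0.359, and without each library in turn from 0.0838 to 0.392. Within-line spread was wide, since the SD of log2 counts stood at the 96.6th percentile of all genes tested in Control and at the 91.6th in LS1. Those ranks were taken over genes of every level, and *Fxyd2* stood at the 26.8th percentile of level per kilobase.

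Epithelial markers, of which 4 of 6 passed the filter, summed to 282 to 367 counts in Control and 284 to 405 in LS1. B cell markers summed to 46061 to 49074 in Control and 28365 to 43972 in LS1, without overlap and lower in LS1. By limma 6 of the 8 B cell and 1 of the 4 tested epithelial markers had an unadjusted p under 0.05, against 12.9% of all genes. By immunostaining, the study placed FXYD2 protein mainly in articular cartilage and the proliferative zone of the growth plate. It also described FXYD2 and SOX9 staining as seemingly weaker and sparser in Longshanks growth plates, showing LS1 beside Control. The chondrocyte markers went the other way from *Fxyd2*, with 13 of 14 genes higher in LS1 and a median log2 fold change of 0.49. The summed counts of these chondrocyte markers were higher in LS1 without overlap. The part of B cells or chondrocytes in the *Fxyd2* difference was not tested.

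Within 100 kb of *Fxyd2*, 5 other genes had reads. *Fxyd6*, the nearest upstream gene at chr9:45370185-45396159, had 2500.3, 2155 and 2594 counts in Control and 2038, 2538 and 2835 in LS1. The lines overlapped, with a log2 fold change of 0.02 (SE 0.16, 95% confidence interval -0.33 to 0.38). *Fxyd6* is best known from the brain. *Dscaml1*, an adhesion gene downstream, was low, at 15.1 to 45.5 counts in Control and 20.9 to 40.9 in LS1. *Tmprss13*, *1700003G13Rik* and *4833428L15Rik* had 56, 3 and 15 reads in all and were not tested.

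Set against *Fxyd6* per kilobase, *Fxyd2* was 12.1%, 11.9% and 31.6% of its neighbour in Control and 3.02%, 4.71% and 5.60% in LS1. Against *Fxyd5* it was 3.42%, 2.60% and 4.71% in Control and 0.782%, 1.10% and 1.19% in LS1. The LS1 libraries were below the Control libraries in both ratios, which carry the same *Fxyd2* values.

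The other FXYD members lie together on chromosome 7. *Fxyd5* (chr7:31032722-31042481) had 9042, 10036 and 17755 normalised counts in Control and 8028, 11109 and 13592 in LS1. Control replicate 3 was again the highest library, and the lines overlapped over most of their range. The log2 fold change was -0.14 (SE 0.27, 95% confidence interval -0.76 to 0.49), and it was 0.16 without Control replicate 3. *Fxyd1* (chr7:31051678-31057199), the phospholemman of heart and skeletal muscle, had 1413, 1341 and 1772 in Control and 1053, 1263 and 1749.8 in LS1. Replicate 3 was the highest library of each line, and the fold change of -0.18 on the log2 scale (SE 0.21) had a 95% confidence interval of -0.63 to 0.28. Skeletal muscle markers summed to 27503, 14634 and 11125 counts in Control and 5818, 16071 and 11304 in LS1. All 9 tested muscle genes had log2 fold changes below 0, with a median of -0.68, where 50.7% of all genes tested were above 0. By limma 0 of the 9 had an unadjusted p under 0.05, against 12.9% of all genes. In Control, replicate 3 had the lowest muscle sum and the highest *Fxyd1* count. In LS1, replicate 1 was the lowest in both. The part of muscle in the *Fxyd1* value was not tested.

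*Fxyd3* (chr7:31068172-31076704), a form of epithelia also known as MAT-8, had 551, 445 and 509 counts in Control. In LS1 it had 285, 542 and 541, so that LS1 replicate 1 stood apart below the others. The fold change was -0.19 on the log2 scale (SE 0.27, 95% confidence interval -0.77 to 0.39), and it was 0.12 without LS1 replicate 1. *Lgi4*, a gene of peripheral glia, overlaps *Fxyd3* on the opposite strand, so that their reads may not be separated.

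**Figure D3:**
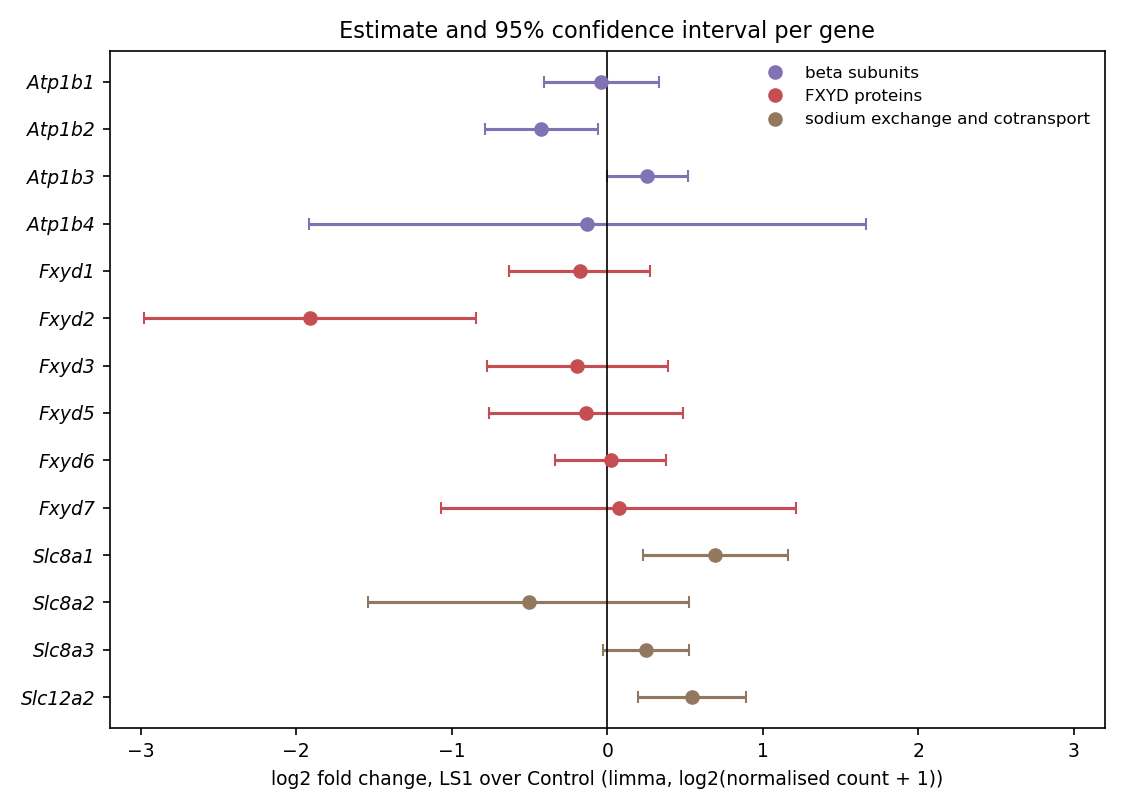
Log2 fold change of LS1 over Control from limma (horizontal axis) with its 95% confidence interval for the 10 tested beta and FXYD genes and 4 genes of sodium exchange and cotransport. The interval of *Fxyd2* (-2.98 to -0.84) is the one farthest from 0, and those of *Atp1b2*, *Slc8a1* and *Slc12a2* also leave out 0, before any adjustment over genes.

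Isoform shares were computed in each library as the percent of the summed level per kilobase of a class. In the beta class *Atp1b3* held 83.4%, 84.2% and 83.8% in Control and 86.5%, 88.2% and 87.2% in LS1. The LS1 libraries were all higher, by 3.51 percentage points on average. *Atp1b2* held 6.12%, 6.06% and 4.78% in Control and 3.39%, 4.38% and 3.29% in LS1, without overlap and 1.53-fold lower on average. *Atp1b1* held 10.5% ± 0.884 in Control and 8.96% ± 1.42 in LS1 (SD, n = 3 each), with overlap. The ratio of *Atp1b2* to *Atp1b3* within a library was 7.34%, 7.20% and 5.71% in Control and 3.91%, 4.97% and 3.77% in LS1.

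In the FXYD class *Fxyd5* held 64.4% ± 5.85 in Control and 64.9% ± 0.950 in LS1 (SD, n = 3 each). *Fxyd1* held 15.8% ± 2.12 and 15.5% ± 1.10, and *Fxyd6* 13.7% ± 3.06 and 15.2% ± 1.28, in the same order. *Fxyd3* held 2.43% ± 0.677 in Control and 2.32% ± 0.403 in LS1. *Fxyd2* held 2.01%, 1.66% and 3.32% in Control and 0.499%, 0.717% and 0.782% in LS1, a mean share 3.50-fold lower and without overlap, for a gene that the study took from its calls on these libraries.

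Of the 11 shares, 4 did not overlap between the lines, those of *Atp1b2*, *Atp1b3*, *Fxyd2* and *Fxyd4*. For comparison, the counts of 19.2% of all genes tested did not overlap, and the counts of *Atp1b2* did. The share of *Fxyd4* rests on 78 reads. Each of the 4 shares had p = 0.1 in the two-sided exact permutation test, the smallest p that 3 mice against 3 allow, and 0.275 adjusted over the 11 shares. The shares of a class sum to the whole, so they do not vary independently. Their sizes depended on the length used, since FXYD genes have annotated transcripts of unlike length. With the length of the principal transcript, *Fxyd2* held 4.35% ± 1.51 in Control and 1.27% ± 0.279 in LS1 (SD, n = 3 each), 3.41-fold lower. *Fxyd3* then held 1.21% ± 0.366 in Control, and *Fxyd5* 68.1% ± 4.37. With the longest transcript, *Fxyd1* held 29.3% ± 3.26 of the class in Control and *Fxyd5* 51.1% ± 5.87.

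**Figure D4:**
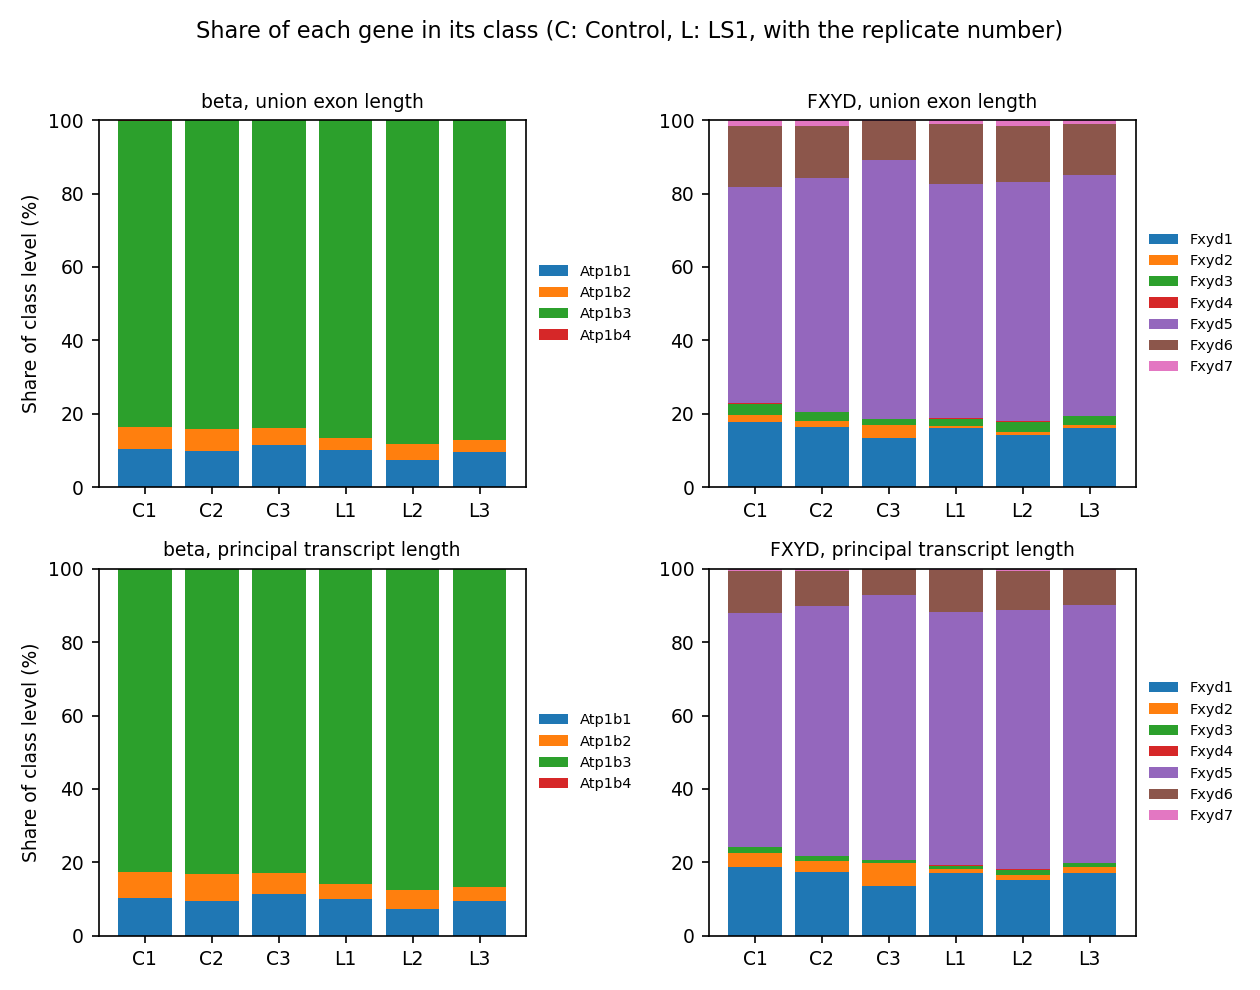
Stacked shares (percent of the class level per kilobase) of the beta and FXYD genes in each library, with the union of exons as the length above and the principal transcript below. *Atp1b3* and *Fxyd5* take most of their class in all 6 libraries, the *Atp1b3* part is larger in the 3 LS1 libraries, and the thin *Fxyd2* part is smaller there.

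The class totals were compared on the log2 scale. The beta total was 11349, 11067 and 10834 per kilobase in Control and 13374, 11989.6 and 12803 in LS1, higher in all LS1 libraries. The difference was 0.20 (p = 0.1 by an exact two-sided permutation test, the lowest this design allows, 0.3 adjusted over the 3 class measures). The FXYD total was 4477 ± 1327 per kilobase in Control and 4002 ± 972 in LS1 (SD, n = 3), a log2 difference of -0.15 (exact permutation test, p = 0.7). It was 0.080 without Control replicate 3 and 0.040 without LS1 replicate 1.

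FXYD genes stood at 0.406 ± 0.129 of the beta total in Control and 0.316 ± 0.0831 in LS1 (SD, n = 3 each), with overlap (exact permutation test, p = 0.5). With the principal transcript these ratios were 1.14 ± 0.399 and 0.870 ± 0.232, so that the length used decides whether FXYD or beta transcripts were the more abundant in the Control mean.

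Sodium exchangers and cotransporters use the gradient that the pump sets, and values are given for 4 such genes. At an adjusted p under 0.05 limma called 0 of the 4, against 0.0725% of all genes, and before adjustment 2 had a p under 0.05, both higher in LS1, against 12.9% of all genes. In 3 of the 4 every LS1 library was above every Control library, against 10.3% of all genes. The chondrocyte markers, 13 of 14 of them above 0 with sums that did not overlap, were higher in the same libraries, and their part in these values was not tested. *Slc8a1*, the sodium-calcium exchanger of heart, had 352, 343 and 400 counts in Control and 483, 727 and 588 in LS1. Its log2 fold change was 0.70 (SE 0.21, limma adjusted p = 0.255 and DESeq2 adjusted p = 0.0513). *Slc12a2*, the sodium-potassium-chloride cotransporter NKCC1, which brings ions into the cell, had 2860.5, 2499.9 and 2350.4 counts in Control and 4511, 3492 and 3316 in LS1. Its log2 fold change was 0.55 (SE 0.16, limma adjusted p = 0.236 and DESeq2 adjusted p = 0.0745).

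*Slc8a3*, another sodium-calcium exchanger, was by far the most abundant of the 4 per kilobase, at 2501 ± 165 in Control and 2979 ± 248 in LS1 (SD, n = 3). Its counts were 13495, 14125 and 12386 in Control and 17401, 15243 and 15002 in LS1, a log2 fold change of 0.25 (SE 0.13, limma adjusted p = 0.433). *Slc8a2* was low, at 26.2 to 49.8 counts in Control and 17.1 to 43.8 in LS1.

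**Figure D5:**
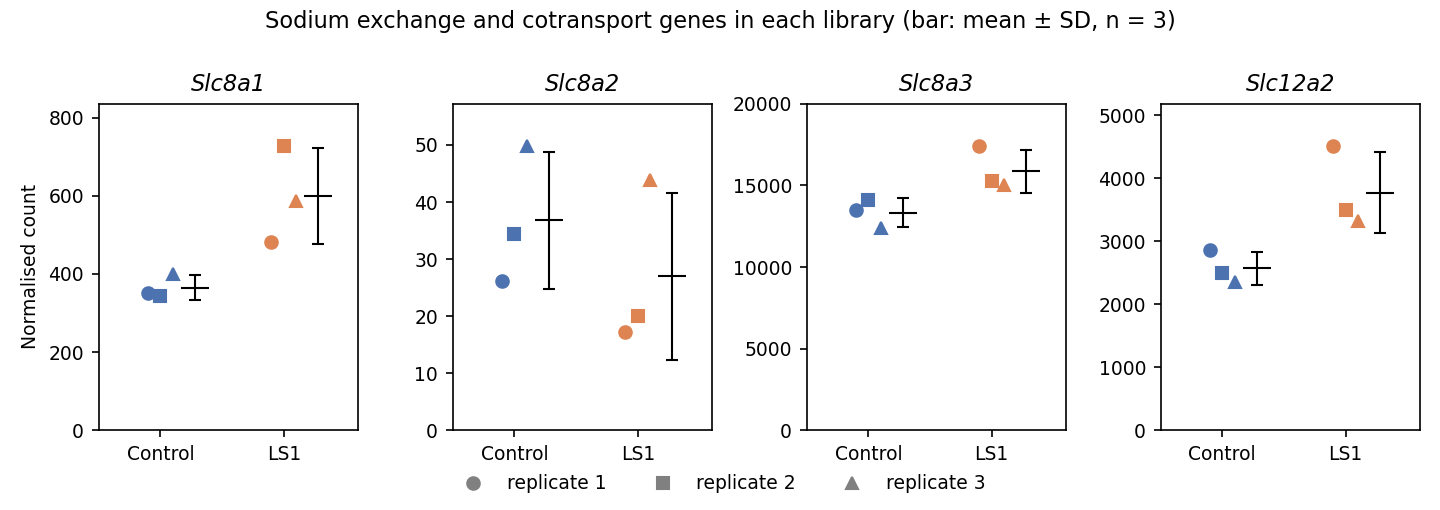
Normalised count (vertical axis, from 0) of the 4 sodium exchange and cotransport genes in Control and LS1, with 1 point per library and the mean ± SD beside the points. The LS1 points of *Slc8a1*, *Slc8a3* and *Slc12a2* lie above all Control points, while those of *Slc8a2* overlap.

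Genes of proteins that bind the pump or resemble it overlapped between the lines where tested. Of the NKAIN family, which interacts with the pump's beta subunit, *Nkain1* had 332 ± 92.2 counts in Control and 301 ± 114 in LS1 (SD, n = 3). *Nkain2* had 75.0 ± 18.3 and 46.6 ± 31.6, with a log2 fold change of -0.84 (SE 0.45, limma adjusted p = 0.462). *Nkain3* and *Nkain4* were not tested. The potassium pump genes *Atp4a* and *Atp12a*, of stomach and colon, had 365 and 156 reads over the 6 libraries with log2 fold changes of -0.59 and -0.14 (SEs 0.39 and 0.67), and *Atp4b* had 14 reads.

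The genes whose pattern over the 6 libraries was nearest to *Fxyd2*, by Pearson's r on log2(normalised count + 1), were *Gm44768* (0.995), *Cux1* (0.993), *Pfdn6* (0.992), *H2afj* (0.990) and *Gm19246* (0.988). In all 5 the highest library was Control replicate 3 and the lowest LS1 replicate 1, as in *Fxyd2*. They are given as a description over 6 points, and 114 genes had an r over 0.95. The nearest to *Atp1b2* were *Gm14109* (0.995), *Nos1ap* (0.990) and *Zmynd8* (0.990), of 73 genes over 0.95.

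Total reads ran from 68803249 to 76581954 in Control and from 82227711 to 88745366 in LS1, so each LS1 library was deeper. Of the 8 genes *Fxyd2* had the fewest reads, 1603 in all. Markers of cartilage, bone and marrow were present, with 0 of 14 chondrocyte and 0 of 8 osteoblast genes under the filter on reads. Osteoblast markers had a median log2 fold change of 0.01, osteoclast markers 0.03, macrophage markers 0.28, neutrophil markers 0.27, endothelial markers 0.09 and adipocyte markers -0.01.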

How the data were processed

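RNA with poly(A) tails was sequenced from 3 Control and 3 LS1 mice as paired short reads. Per the labels, the authors mapped reads with HISAT2 2.0.2 to GRCm38, counted them per gene with featureCounts 1.4.6 and used DESeq2. The deposited signal is the read count of a gene divided by the authors' size factor for the library, without a length correction. Reads were recovered by division, and 100% of the values were within 0.1 of a whole read. In Control replicate 1 the value of 1 read (1.01) was too close to 1 to tell recovered from rounded values.

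LS1 was compared with Control by limma 3.58.1 (R 4.3.3) on log2(value + 1), with a mean-variance trend and robust moderation, for 19308 genes with a mean of at least 20 reads. The Benjamini-Hochberg adjustment ran over these genes, with a threshold of 0.05. A fold change on this scale understates that of low genes. Lengths, symbols and coordinates came from GENCODE M21, and 99.1% of the identifiers had a symbol. Shares and class totals used the union of exons and two-sided exact permutation tests (SciPy) over samples. Alternatives used edgeR 4.0.16, DESeq2 1.42.0 and limma-voom. The main limma fit and the edgeR, DESeq2 and voom fits were run on simulated data, and the other settings were not. The members and gene lists were chosen with earlier results of these data known. Named genes were the 8 members, the genes of 5 pathway lists, genes with reads within 100 kb of *Fxyd2*, and the 5 and 3 genes most like *Fxyd2* and *Atp1b2*. The 12 lists of cell type markers were described by counts and sums. Some genes of the fixed lists are not reported here. No value column was left unused (0 columns).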

Additional observations from a re-analysis of the deposited data

How the results depend on the processing

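Of the 8 genes and the 2 tested genes beside them, *Atp1b4* and *Fxyd7*, 0 were called by limma, and 1, *Fxyd2*, by DESeq2, while 0 were called in the other settings run. Across the table limma called 14 genes (2 higher), edgeR 7, edgeR without Control replicate 1 (added after the data were seen) 5, voom 8, DESeq2 456 (276 higher), limma at 100 reads 9 and without a filter 45. Leaving out each library gave 5 (without Control replicate 2) to 324 (without LS1 replicate 3), with 46 without LS1 replicate 1 and 9 without Control replicate 1. The replicate block by the title's first letter called 12 genes and 0 of these, and the letters' deviations correlated by 0.05, 0.02 and 0.22.

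Without each library the ratio of mean *Fxyd2* counts ran from 2.47 to 5.07. Its log2 fold change stayed between -2.23 and -1.39, that of *Atp1b2* between -0.56 and -0.34 and that of *Atp1b3* between 0.23 and 0.29. Those that changed sign ran from -0.16 to 0.14 for *Atp1b1*, -0.35 to 0.12 for *Fxyd3*, -0.32 to 0.16 for *Fxyd5*, -0.083 to 0.155 for *Fxyd6*, -0.44 to 0.40 for *Fxyd7* and -1.07 to 0.58 for *Atp1b4*. *Fxyd7* was at -0.019 with edgeR and -0.018 with DESeq2, and without Control replicate 1 edgeR gave 0.36 for *Atp1b4*. The FXYD total ran from -0.32 to 0.080 on the log2 scale. The length of the principal transcript was added after the data were seen.

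Without each library, share differences that changed sign ran from -0.045 to 0.0050 percentage points for *Atp1b4*, -1.50 to 0.57 for *Fxyd1*, -0.45 to 0.23 for *Fxyd3*, -2.24 to 3.59 for *Fxyd5*, -0.055 to 2.99 for *Fxyd6* and -0.49 to 0.19 for *Fxyd7*. Those of *Fxyd2* (-2.00 to -1.17), *Atp1b2* (-2.41 to -1.74) and *Atp1b3* (3.07 to 3.90) did not. Where a result changed, the cause was not tested. Genes with few reads, such as *Atp1b4* and *Fxyd7*, are limited by depth.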
